A study of Mus musculus with 8 samples.

Results

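The genes described here act in mitosis, from chromosome condensation through the spindle to cytokinesis. They form a list of 49 symbols, given by name, with no threshold on measured values, though earlier results of these data were known when the list was made. Of these, 44 had at least 1 probe set assigned to that symbol alone, out of 18782 genes measured. Ccnb1, Foxm1, Ube2c, Kif20a and Nusap1 had no such probe set and were not analysed here. RNA came from lung macrophages of C57BL/6 mice and was measured on 8 Affymetrix arrays, in 4 groups of 2. All mice were homozygous for a loxP-flanked Pparg gene (PPARg fl/fl), and controls carried no recombinase. Knockouts also carried CD11c-Cre, which acts in cells that express CD11c, so other CD11c-expressing cells are affected as well. Mice were 2 or 11 days old, the labels name no agent given to them, and each array held sorted cells pooled from 2 mice. Day 2 cells were live CD45+, F4/80+ and CD11c high, taken from a gate intermediate for Siglec-F and CD11b or from a Siglec-F low, CD11b high gate. The labels call the knockout cells of day 2 arrested precursors of alveolar macrophages. Day 11 cells were CD11c high, highly autofluorescent and Siglec-F positive, and they were CD11b low if control and CD11b high if knockout. The labels name these knockout cells arrested immature precursors. Genotype and gate therefore cannot be told apart at day 11, and the sources used here do not state which day 2 gate served which genotype.

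A cell enters mitosis when the kinase CDK1, bound to A-type and B-type cyclins, is switched on by CDC25 phosphatases. Condensins and topoisomerase II then compact the chromosomes, kinases of the Polo and Aurora families build the spindle, kinetochores attach it, and the spindle checkpoint holds anaphase until every chromosome is attached. Most of these genes are transcribed late in the cell cycle, from promoters that carry a cell cycle homology region (CHR) bound by the MuvB complex and CCAAT boxes bound by NF-Y, so that their RNA marks cells in G2 and M phase. Alveolar macrophages are seeded by fetal monocytes around birth, expand in the lung and afterwards maintain themselves by local division.

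Promoter sequence was at hand for 37 of the 44 genes, in 39 windows of 250 bases before to 50 after the start annotated by RefSeq (GRCm38.p6). Below are the 150 bases before the start for 6 of them, as examples of a CHR that lies before the start. They are those with the largest fall in knockouts at day 2 among the 15 genes that had a CHR in this stretch. Each reads 5′ to 3′ on the strand of the gene, and capitals mark the CHR (TTTGAA or TTTAAA, or TTCAAA, the reverse complement of the first) and the CCAAT box (CCAAT, or ATTGG on the other strand). The CHR printed lies within 50 bases of the start in Ncapg, Kif15, Cdc20 and Kif22 and farther away in Kif2c and Smc2. Smc2 has a further match after the start, at +27, outside the stretch printed. In other genes, among them Kif23, Bub1b, Ttk, Kif4, Cenpe and Anln, the matches lay after the start, outside the stretch printed.
Ncapg (chr5:45669775-45669924, plus strand): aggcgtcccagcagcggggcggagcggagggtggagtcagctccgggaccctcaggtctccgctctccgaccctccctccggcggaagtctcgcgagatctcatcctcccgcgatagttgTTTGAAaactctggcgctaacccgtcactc
Kif2c (chr4:117178773-117178922, minus strand): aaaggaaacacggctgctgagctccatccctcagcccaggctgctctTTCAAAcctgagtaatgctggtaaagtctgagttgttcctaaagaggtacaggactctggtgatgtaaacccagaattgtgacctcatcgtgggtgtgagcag
Kif15 (chr9:122950931-122951080, plus strand): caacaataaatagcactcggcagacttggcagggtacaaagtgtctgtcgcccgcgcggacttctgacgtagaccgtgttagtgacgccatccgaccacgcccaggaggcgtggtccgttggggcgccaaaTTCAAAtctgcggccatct
Cdc20 (chr4:118437344-118437493, minus strand): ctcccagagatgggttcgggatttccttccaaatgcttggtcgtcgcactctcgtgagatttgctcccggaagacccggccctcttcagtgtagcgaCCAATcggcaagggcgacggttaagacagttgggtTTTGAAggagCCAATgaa
Kif22 (chr7:127042421-127042570, minus strand): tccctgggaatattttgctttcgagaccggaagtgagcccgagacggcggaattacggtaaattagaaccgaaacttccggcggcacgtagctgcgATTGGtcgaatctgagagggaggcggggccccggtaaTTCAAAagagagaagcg
Smc2 (chr4:52439071-52439220, plus strand): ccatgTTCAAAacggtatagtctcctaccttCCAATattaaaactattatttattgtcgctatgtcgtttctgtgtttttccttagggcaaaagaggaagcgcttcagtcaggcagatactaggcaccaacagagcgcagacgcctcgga

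A CHR lay in 31 of the 39 windows (79.5%), against 27.6% of all 32851 mouse promoter windows of the same length, both strands counted. Within 50 bases of the start it lay in 27 windows (69.2%), against 8.28% of all. The TTTGAA form was in 71.8% of the mitosis windows and in 17.9% of all windows. CCAAT was found in 27 windows (69.2%, against 37.4% of all), and at least 2 copies in 41.0%, against 11.7%. Both motifs stood together in 24 windows (61.5%), against 10.7%. An E2F site (TTCGCGC or else TTGGCGC or else TTCCCGC) was in 9 windows (23.1%), against 8.07%. A match is a description of the letters and not a measured binding site. The map of motif positions shows the matches gathered near the start.

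**Figure D1:**
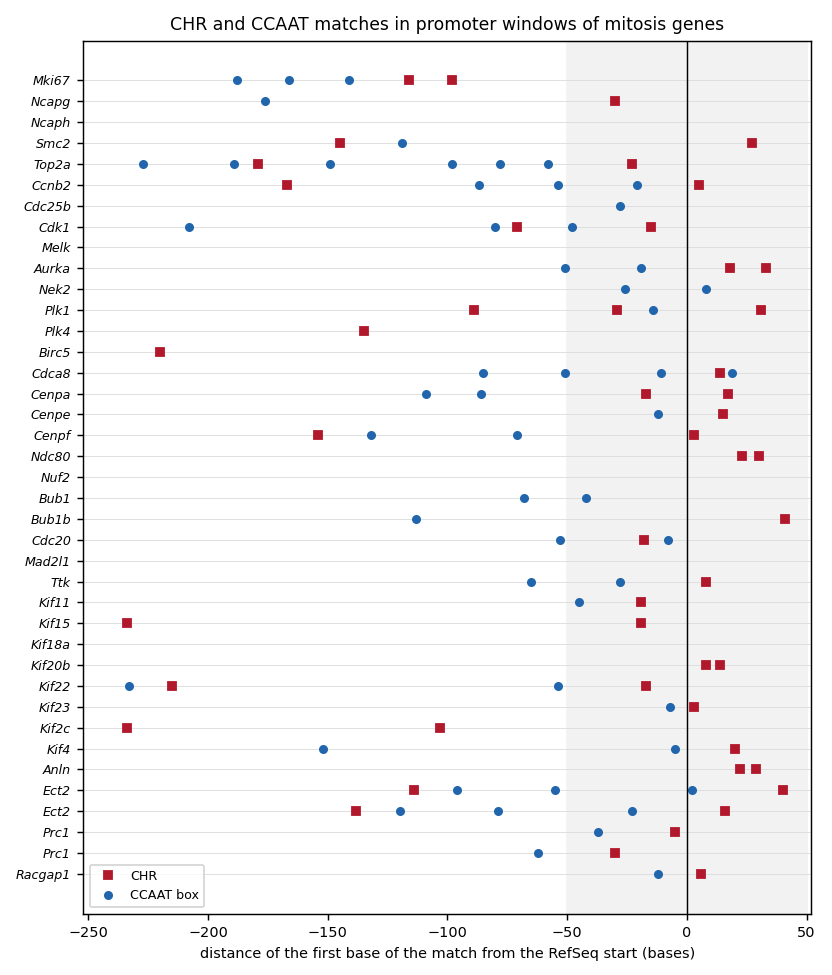
Positions of CHR (red squares) and CCAAT (blue circles) matches in the 39 promoter windows of 37 mitosis genes, as distance in bases from the RefSeq start, with genes ordered by role. The grey band covers 50 bases on either side of the start, where 27 windows hold a CHR.

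Several features of the arrays bear on the results. Ranked values of any array match those of the others to within 0.026 log2 units (median 5.35), so a shift of all genes cannot be seen. Precision is limited by having 2 arrays per group. Each p-value weighs a difference against the spread between pools within all 4 groups, drawn toward the spread typical of all genes. Pparg itself was not lower on every knockout array, with 10.89 and 11.01 (controls) against 10.55 and 10.74 (knockouts) at day 2, and 11.18 and 11.13 against 11.32 and 11.36 at day 11. Such a probe set checks a deletion only where it covers the deleted exons, which the sources used here do not state. The summed signal of 9 alveolar macrophage markers, on a log2 scale, was 14.04 to 14.05 in day 2 controls and 13.25 to 13.44 in day 2 knockouts, then 14.58 to 14.60 and 13.84 to 13.97 at day 11. That of 8 monocyte markers ran the other way. It was 12.51 to 12.53 and 13.62 to 13.66 at day 2, then 12.30 to 12.37 and 13.17 to 13.22. Gene by gene the alveolar macrophage markers differed more than their sum. At day 2, 7 of 9 were called lower in knockouts and 0 higher, with a median log2 difference of -2.58. At day 11, 6 of 9 were lower and 0 higher, with a median of -2.02. Of all genes 11.2% and 9.29% were called lower. Monocyte markers were called higher in knockouts for 7 of 8 at day 2 and 5 of 8 at day 11. Dendritic cell markers were for 6 of 10 and 2 of 10, and endothelial markers for 4 of 10 and 2 of 10. Of all genes 8.86% and 9.34% were called higher. Of the endothelial markers 0 were called lower at day 2 and 1 at day 11. Whether called or not, 4 endothelial markers lay higher and 6 lower at day 11, with a median log2 difference of -0.05. Among 9 neutrophil markers 6 were higher and 1 lower at day 2, and 2 were higher and 1 lower at day 11. Their summed signal was 9.22 to 9.23 in day 2 controls and 11.18 to 11.33 in day 2 knockouts, then 9.17 to 9.39 and 11.36 to 11.39, and that of the dendritic cell markers was 9.08 to 9.10 and 12.14 to 12.27, then 9.38 to 9.69 and 10.30 to 11.03. Whether called or not, 8 of 9 neutrophil markers lay higher in knockouts at day 2, with a median log2 difference of 0.705. At day 11, 4 lay higher and 5 lower, with a median of -0.06, so the higher sum does not describe most of that list. Of the dendritic cell markers 10 of 10 lay higher at day 2 (median 1.03). At day 11, 7 lay higher and 3 lower (median 0.06). The part of all these cells in the mitosis results was not tested. Median signals of the T and NK cell and B cell markers lay between 4.04 and 4.77 on all arrays, below the array median. Their summed signals were 9.90 to 10.93 and 9.93 to 10.53. At day 2, 1 of 9 T and NK cell markers and 0 of 9 B cell markers were called higher in knockouts. At day 11, 2 of 9 T and NK cell markers were higher. Of the 9 B cell markers 1 was higher and 2 lower, where 9.29% of all genes were lower. Their part was not tested either.

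The pools also differed in sex-linked genes. The mean signal of 3 Y-linked genes was 6.19 in pool 1 and 8.05 in pool 2 of the day 2 controls, 4.37 and 7.58 in the day 2 knockouts, and 7.44 to 8.32 in the 4 pools of day 11. It was lowest in pool 1 of the day 2 knockouts. Xist was at 3.38 in pool 2 of the day 2 controls and at 3.46 in pool 1 of the day 11 knockouts, and between 9.85 and 10.68 in the other 6. The mitosis genes split the pools of 1 group further apart than those of the others. In 40 of 44 genes pool 2 of the day 11 knockouts lay below pool 1, with a median difference of -0.29, against 0.01 over all genes. In the day 2 controls pool 2 lay above pool 1 in 39 of 44 genes, by a median of 0.12, against 0.002 over all genes. Each of these groups holds 1 pool low in Xist and 1 high in it. Shares over all genes are not given here for these pool counts. With the Y-linked signal as a covariate, chosen after seeing the data, 43 genes were called lower in knockouts at day 2 and 44 at day 11, 2 were lower with age in controls and 30 with age in knockouts, and the genotype difference changed with age in 0.

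Nearly all of the mitosis genes were lower in knockouts at both ages. At day 2, 43 of 44 were called lower and 0 higher (limma, adjusted p under 0.05 over all genes), where 11.2% of all genes were called lower and 8.86% higher. Among the brighter genes, those above the array median on at least 2 arrays, which include all 44, the share was 21.9%. The median log2 difference was -0.82 (1.76-fold lower), against -0.03 over all genes, and the single values ran from -1.28 for Kif23 to -0.27 for Cenpa. At day 11, 43 of 44 were called lower and 0 higher, where 9.29% of all genes and 17.9% of the brighter ones were called lower, and 9.34% of all genes higher. The median was -1.15 (2.21-fold lower), with single values from -1.75 for Kif23 to -0.38 for Smc4. A called fall of at least 2-fold was seen in 8 genes at day 2 and in 29 at day 11, against 1.12% and 1.60% of all genes. Both knockout pools lay below both control pools of the same age in all 44 genes at both ages, which held for 34.2% of all genes at day 2 and 28.7% at day 11. In RNA from many cells, fewer dividing cells and less of each RNA per cell cannot be told apart.

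**Figure D2:**
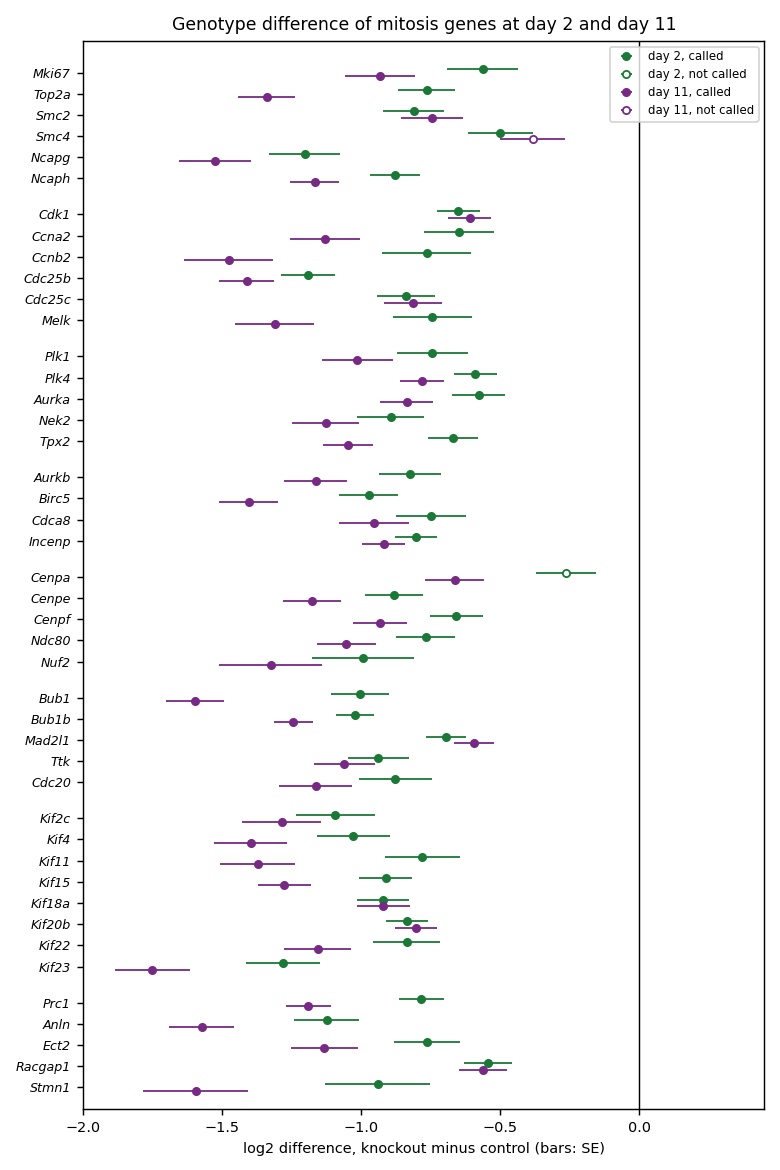
Log2 difference between knockouts and controls for each of the 44 genes at day 2 (green) and day 11 (purple), with standard errors as bars and genes grouped by role. Every point lies left of 0, and the open points are the differences that missed the threshold, Cenpa at day 2 and Smc4 at day 11.

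Leaving out an array moved few of these calls. Without pool 2 of the day 2 controls 36 genes stayed called at day 2, and Mki67, Smc4, Ccna2, Ccnb2, Melk, Nuf2 and Stmn1 missed the threshold, with adjusted p from 0.0589 for Nuf2 to 0.109 for Mki67. Mki67, Smc4 and Ccnb2 also missed it without pool 1 (0.0582, 0.0963 and 0.0513), and Mki67 and Smc4 without pool 1 of the day 2 knockouts (0.0799 and 0.0795). The 43 calls of day 11 were kept without any 1 of the 8 arrays.

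Of the chromosome condensation group, all 6 genes were called lower in knockouts at day 2 and 5 at day 11. Here and below, differences are on the log2 scale, knockout minus control, with day 2 given first. Mki67 encodes Ki-67, which coats mitotic chromosomes and is the common marker of cycling cells. The Mki67 signal was 10.57 and 10.68 on the day 2 control arrays, 9.97 and 10.15 on the day 2 knockout arrays, 10.34 and 10.37 on the day 11 control arrays and 9.62 and 9.22 on the day 11 knockout arrays. Each age separated the genotypes, and the lowest value was pool 2 of the day 11 knockouts. Mki67 was 1.48-fold lower in knockouts at day 2, a log2 difference of -0.56 ± 0.13 (SE, adjusted p = 0.0167), and 1.91-fold lower at day 11, -0.93 ± 0.13 (SE, adjusted p = 0.0016). Top2a, topoisomerase II alpha, untangles sister DNA. Its signal was 9.79 and 9.86 on the day 2 control arrays, 9.08 and 9.04 on the day 2 knockout arrays, 9.71 and 9.58 on the day 11 control arrays and 8.45 and 8.16 on the day 11 knockout arrays. The differences of Top2a were -0.77 ± 0.10 (SE, adjusted p = 0.00136) at day 2 and -1.34 ± 0.10 (SE, adjusted p = 9.22e-05) at day 11. Ncapg, a regulatory subunit of condensin I with the CHR shown above, was at 8.36 and 8.33 on the day 2 control arrays, 7.19 and 7.08 on the day 2 knockout arrays, 7.96 and 7.85 on the day 11 control arrays and 6.59 and 6.16 on the day 11 knockout arrays. It fell the most of this group, with -1.20 ± 0.13 (SE, adjusted p = 0.000468) at day 2 and -1.53 ± 0.13 (SE, adjusted p = 0.000156) at day 11. Smc4, an ATPase at the core of both condensins, was at 10.22 and 10.20 on the day 2 control arrays, 9.55 and 9.87 on the day 2 knockout arrays, 10.32 and 10.22 on the day 11 control arrays and 9.77 and 10 on the day 11 knockout arrays. Its controls lay close together and its knockouts below them, without a further drop at day 11, and the differences were -0.50 ± 0.12 (SE, adjusted p = 0.0195) and -0.38 ± 0.12 (SE, adjusted p = 0.0586). In the alternatives that called Smc4 at day 11 the adjusted p was 0.0211 to 0.0492. Smc2, the partner of Smc4, differed by -0.81 and -0.75, and Ncaph, another condensin I subunit, by -0.88 and -1.17.

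All 6 measured genes of mitotic entry fell at both ages. Cdk1 is the kinase that starts mitosis. The Cdk1 signal was 9.36 and 9.44 on the day 2 control arrays, 8.77 and 8.73 on the day 2 knockout arrays, 9.12 and 9.17 on the day 11 control arrays and 8.63 and 8.44 on the day 11 knockout arrays. Knockouts lay below controls by a similar amount at both ages, -0.65 ± 0.08 (SE, adjusted p = 0.00079) at day 2 and -0.61 ± 0.08 (SE, adjusted p = 0.00114) at day 11. Its cyclin partners had larger differences at day 11 than at day 2, a change that was not itself called. Ccna2, cyclin A2, was at 10.43 and 10.57 on the day 2 control arrays, 9.79 and 9.92 on the day 2 knockout arrays, 10.27 and 10.15 on the day 11 control arrays and 9.27 and 8.89 on the day 11 knockout arrays. The differences of Ccna2 were -0.65 ± 0.13 (SE, adjusted p = 0.00886) and -1.13 ± 0.13 (SE, adjusted p = 0.000588). Ccnb2, cyclin B2, was at 10.97 and 11.09 on the day 2 control arrays, 10.24 and 10.29 on the day 2 knockout arrays, 10.72 and 10.76 on the day 11 control arrays and 9.55 and 8.97 on the day 11 knockout arrays. Its 2 day 11 knockout pools differed from each other by more than those of most genes here, and the differences were -0.77 ± 0.16 (SE, adjusted p = 0.0126) and -1.48 ± 0.16 (SE, adjusted p = 0.00052). Cdc25b, a phosphatase that activates CDK1 at the centrosome, was at 8.81 and 8.97 on the day 2 control arrays, 7.70 and 7.70 on the day 2 knockout arrays, 9.10 and 8.83 on the day 11 control arrays and 7.55 and 7.56 on the day 11 knockout arrays. Knockouts of both ages were near one level and controls near another, with differences of -1.19 ± 0.10 (SE, adjusted p = 0.000135) and -1.41 ± 0.10 (SE, adjusted p = 6.27e-05). Cdc25c, a related phosphatase, was at 5.98 and 5.99 on the day 2 control arrays, 5.03 and 5.26 on the day 2 knockout arrays, 5.38 and 5.44 on the day 11 control arrays and 4.72 and 4.47 on the day 11 knockout arrays. Those values are near the array median, and they differed by -0.84 ± 0.10 (SE, adjusted p = 0.000971) and -0.81 ± 0.10 (SE, adjusted p = 0.00118). Melk, a kinase whose RNA peaks in mitosis, differed by -0.75 and -1.31.

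The 5 kinases and cofactors of centrosome and spindle fell at both ages as well. Plk1, the Polo kinase needed at nearly every step of mitosis, was at 9.28 and 9.37 on the day 2 control arrays, 8.54 and 8.62 on the day 2 knockout arrays, 8.93 and 8.92 on the day 11 control arrays and 8.13 and 7.69 on the day 11 knockout arrays. Its groups did not overlap, and the differences were -0.74 ± 0.13 (SE, adjusted p = 0.00473) and -1.01 ± 0.13 (SE, adjusted p = 0.00108). Aurka, the Aurora kinase of the centrosome, was at 8.13 and 8.19 on the day 2 control arrays, 7.55 and 7.61 on the day 2 knockout arrays, 7.84 and 7.76 on the day 11 control arrays and 7.11 and 6.82 on the day 11 knockout arrays. The Aurka differences were -0.58 ± 0.10 (SE, adjusted p = 0.00402) and -0.84 ± 0.10 (SE, adjusted p = 0.000674). Tpx2, which recruits Aurora A to the spindle, differed by -0.67 and -1.05, Nek2, which splits the centrosomes, by -0.89 and -1.13, and Plk4, the kinase of centriole duplication, by -0.59 and -0.78.

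The chromosomal passenger complex corrects faulty attachments and steers cytokinesis, and all 4 of its subunits fell at both ages. Aurkb, its kinase, was at 10.02 and 10.18 on the day 2 control arrays, 9.18 and 9.37 on the day 2 knockout arrays, 9.75 and 9.77 on the day 11 control arrays and 8.74 and 8.45 on the day 11 knockout arrays. The Aurkb differences were -0.82 ± 0.11 (SE, adjusted p = 0.00153) and -1.17 ± 0.11 (SE, adjusted p = 0.000297). Birc5, which encodes survivin, was at 7.55 and 7.66 on the day 2 control arrays, 6.64 and 6.62 on the day 2 knockout arrays, 7.16 and 7.26 on the day 11 control arrays and 5.96 and 5.65 on the day 11 knockout arrays. It fell the most of the complex, with -0.97 ± 0.11 (SE, adjusted p = 0.000505) and -1.41 ± 0.11 (SE, adjusted p = 8.84e-05). Cdca8 (borealin) differed by -0.75 and -0.95, and the scaffold Incenp by -0.80 and -0.92.

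Centromere and kinetochore genes held the 1 gene without a call at day 2. Cenpa, the histone H3 variant that marks the centromere, was at 9.06 and 9.18 on the day 2 control arrays, 8.84 and 8.87 on the day 2 knockout arrays, 8.73 and 8.78 on the day 11 control arrays and 8.26 and 7.92 on the day 11 knockout arrays. Its day 2 knockouts lay just below their controls and above the day 11 controls, an order seen in no other of the 44 genes. The Cenpa differences were -0.27 ± 0.11 (SE, adjusted p = 0.136) at day 2 and -0.67 ± 0.11 (SE, adjusted p = 0.00379) at day 11, and without either pool of the day 11 knockouts, which leaves another estimate of the spread, the day 2 difference had an adjusted p of 0.0415. Cenpe, a kinesin of the kinetochore, differed by -0.88 and -1.18, and Cenpf by -0.66 and -0.93. Ndc80 and Nuf2, which together bind the ends of spindle microtubules, differed by -0.77 and -1.05 and by -0.99 and -1.33. These 4 were called at both ages.

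All 5 genes of the spindle checkpoint and its target fell at both ages. Bub1, a checkpoint kinase of the kinetochore, was at 9.02 and 9.01 on the day 2 control arrays, 8.13 and 7.90 on the day 2 knockout arrays, 8.63 and 8.53 on the day 11 control arrays and 7.10 and 6.87 on the day 11 knockout arrays. Each of its 4 groups lay apart from the others, and the differences were -1.0 ± 0.10 (SE, adjusted p = 0.00041) and -1.60 ± 0.10 (SE, adjusted p = 4.95e-05). Bub1b encodes BubR1, which holds back the anaphase-promoting complex. Its signal was 9.68 and 9.70 on the day 2 control arrays, 8.64 and 8.70 on the day 2 knockout arrays, 9.82 and 9.75 on the day 11 control arrays and 8.61 and 8.48 on the day 11 knockout arrays. The 4 control arrays lay within a narrow band, as did the 4 knockout arrays, and the differences were -1.02 ± 0.07 (SE, adjusted p = 5.35e-05) and -1.24 ± 0.07 (SE, adjusted p = 2.7e-05). Cdc20, the activator that the checkpoint restrains, was at 7.99 and 8.14 on the day 2 control arrays, 7.18 and 7.20 on the day 2 knockout arrays, 7.67 and 7.72 on the day 11 control arrays and 6.75 and 6.32 on the day 11 knockout arrays. The Cdc20 differences were -0.88 ± 0.13 (SE, adjusted p = 0.00234) and -1.16 ± 0.13 (SE, adjusted p = 0.000594). Mad2l1 (MAD2) differed by -0.70 and -0.59, and Ttk (MPS1), which starts checkpoint signalling, by -0.94 and -1.06.

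Kinesins are motors that slide, shorten or carry along microtubules, and all 8 measured here fell at both ages. Kif23, the motor of centralspindlin, was at 9.96 and 10.12 on the day 2 control arrays, 8.68 and 8.84 on the day 2 knockout arrays, 10.13 and 9.82 on the day 11 control arrays and 8.37 and 8.08 on the day 11 knockout arrays. It showed the largest difference of the 44 genes at both ages, -1.28 ± 0.13 (SE, adjusted p = 0.000421) at day 2 and -1.75 ± 0.13 (SE, adjusted p = 9.73e-05) at day 11, which is 2.43-fold and 3.37-fold lower. Kif11, which pushes the spindle poles apart, was at 9.03 and 9.10 on the day 2 control arrays, 8.21 and 8.36 on the day 2 knockout arrays, 8.88 and 8.99 on the day 11 control arrays and 7.78 and 7.34 on the day 11 knockout arrays. The Kif11 differences were -0.78 ± 0.14 (SE, adjusted p = 0.00495) and -1.37 ± 0.14 (SE, adjusted p = 0.000331). Kif2c, which shortens microtubules at the centromere, was at 8.05 and 8.24 on the day 2 control arrays, 7.12 and 6.99 on the day 2 knockout arrays, 7.80 and 7.60 on the day 11 control arrays and 6.62 and 6.20 on the day 11 knockout arrays. Its differences were -1.09 ± 0.14 (SE, adjusted p = 0.00126) and -1.29 ± 0.14 (SE, adjusted p = 0.000562). Kif22, a motor on chromosome arms, was at 7.98 and 8.17 on the day 2 control arrays, 7.18 and 7.31 on the day 2 knockout arrays, 7.35 and 7.53 on the day 11 control arrays and 6.44 and 6.13 on the day 11 knockout arrays. Age and genotype both separated its arrays, and the genotype differences were -0.84 ± 0.12 (SE, adjusted p = 0.00199) and -1.16 ± 0.12 (SE, adjusted p = 0.000425). Kif18a, which dampens chromosome movements, was at 6.80 and 6.90 on the day 2 control arrays, 5.82 and 6.02 on the day 2 knockout arrays, 6.89 and 6.72 on the day 11 control arrays and 5.83 and 5.93 on the day 11 knockout arrays. Genotype alone separated these values, with differences of -0.92 ± 0.09 (SE, adjusted p = 0.000395) and -0.92 ± 0.09 (SE, adjusted p = 0.00041). Kif4, Kif15 and Kif20b ranged from -1.03 to -0.84 at day 2 and from -1.40 to -0.80 at day 11.

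The last 5 genes act in the spindle midzone, the closing furrow and microtubule turnover, and all fell at both ages. Prc1, which bundles midzone microtubules, was at 8.67 and 8.83 on the day 2 control arrays, 7.96 and 7.97 on the day 2 knockout arrays, 8.56 and 8.55 on the day 11 control arrays and 7.45 and 7.28 on the day 11 knockout arrays. The Prc1 differences were -0.78 ± 0.08 (SE, adjusted p = 0.000395) and -1.19 ± 0.08 (SE, adjusted p = 5.61e-05). Racgap1, the partner of Kif23 in centralspindlin, was at 9.57 and 9.65 on the day 2 control arrays, 8.97 and 9.16 on the day 2 knockout arrays, 9.38 and 9.40 on the day 11 control arrays and 8.90 and 8.75 on the day 11 knockout arrays. It changed far less than Kif23, by -0.54 ± 0.09 (SE, adjusted p = 0.00306) and -0.56 ± 0.09 (SE, adjusted p = 0.00283), though the difference between the 2 genes was not tested. Stmn1, stathmin, destabilises microtubules. The Stmn1 signal was 10.66 and 10.80 on the day 2 control arrays, 9.73 and 9.85 on the day 2 knockout arrays, 10.60 and 10.34 on the day 11 control arrays and 9.19 and 8.56 on the day 11 knockout arrays. Its pools lay furthest apart in the day 11 knockouts, and the differences were -0.94 ± 0.19 (SE, adjusted p = 0.00996) and -1.60 ± 0.19 (SE, adjusted p = 0.000797). Anln (anillin), which scaffolds the contractile ring, differed by -1.13 and -1.58, and Ect2, which activates RhoA there, by -0.76 and -1.13.

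**Figure D3:**
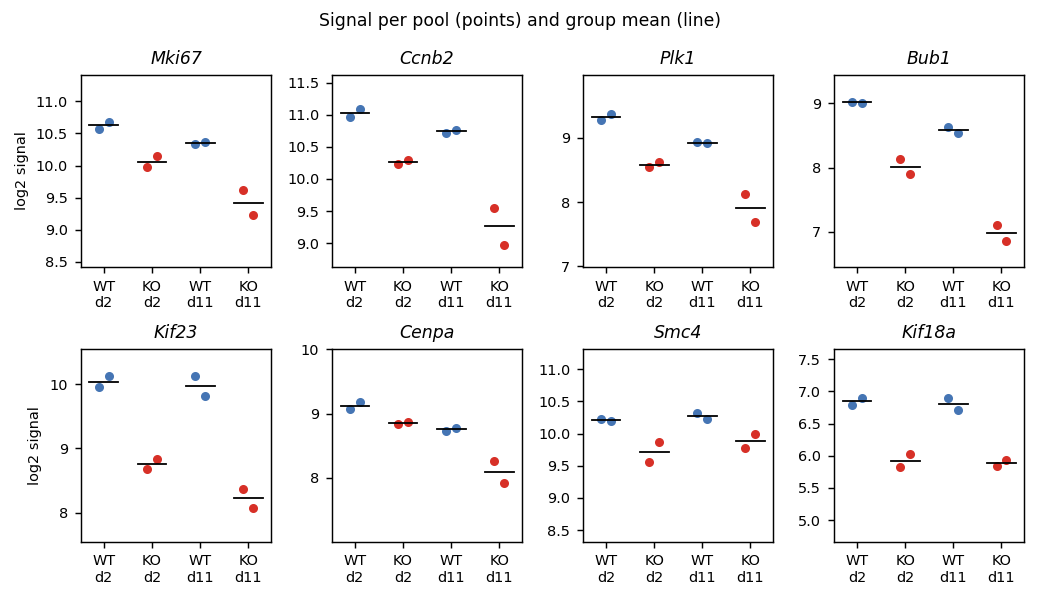
Log2 signal of 8 genes in each pool (points, controls blue, knockouts red) with the group mean as a line. Kif23 and Bub1 separate the genotypes widely, Cenpa drops mainly in the day 11 knockouts, and in Smc4 and Kif18a the knockouts lie lower while the pools of a genotype overlap between ages.

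In controls few of the mitosis genes passed the threshold between day 2 and day 11. Only Kif22 and Cdc25c were called, both lower at day 11, where 2.49% of all genes and 5.61% of the brighter ones were called lower, and 0 were called higher (2.81% of all genes). Kif22 differed by -0.64 ± 0.12 (SE, adjusted p = 0.0258) and Cdc25c by -0.58 ± 0.10 (SE, adjusted p = 0.022). Both calls were lost without any 1 of the 4 control arrays (adjusted p 0.0755 to 0.164 for Kif22 and 0.0981 to 0.142 for Cdc25c), while 12 genes were called without either pool of the day 11 knockouts and 15 when only the 4 control arrays were fitted. The median log2 difference was -0.27, against -0.01 over all genes, and 26 genes were lower at an unadjusted p under 0.05, where 11.4% of all genes were. Both day 11 pools lay below both day 2 pools in 38 of 44 genes, against 28.7% of all genes. Bub1b was the 1 gene with both day 11 pools above (25.3% of all genes), and Smc4, Cdc25b, Kif18a, Kif23 and Anln overlapped. Their differences were 0.10 for Bub1b, 0.06 for Smc4, 0.08 for Cdc25b, -0.04 for Kif18a, -0.07 for Kif23 and 0.08 for Anln, and none of these 6 was called.

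In knockouts 33 of 44 genes were called lower at day 11 than at day 2 and 0 higher, where 6.71% of all genes and 12.3% of the brighter ones were called lower and 8.81% of all genes higher. The median log2 difference was -0.61 (1.53-fold lower), against 0.01 over all genes. Bub1 changed the most, by -1.03 ± 0.10 (SE, adjusted p = 0.000869), followed by Ccnb2, by -1.0 ± 0.16 (SE, adjusted p = 0.00593), and Kif22, by -0.96 ± 0.12 (SE, adjusted p = 0.00212). All 9 genes of the spindle kinase and passenger complex groups fell, from -0.83 for Birc5 to -0.34 for Incenp, as did all 5 of the centromere group, from -0.77 for Cenpa to -0.49 for Cenpf. The 11 genes without a call were Smc2, Smc4, Cdk1, Cdc25b, Bub1b, Mad2l1, Ttk, Kif18a, Kif20b, Anln and Racgap1. Among these Cdk1 differed by -0.21 ± 0.08 (SE, adjusted p = 0.113), Bub1b by -0.13 ± 0.07 (SE, adjusted p = 0.297), Cdc25b by -0.14 ± 0.10 (SE, adjusted p = 0.413) and Kif18a by -0.04 ± 0.09 (SE, adjusted p = 0.84). Smc4 was the 1 gene with a higher mean at day 11, 0.18 ± 0.12 (SE, adjusted p = 0.392). Both day 11 pools lay below both day 2 pools in 42 genes, against 24.6% of all genes, and Smc4 and Kif18a overlapped. Without pool 2 of the day 11 knockouts 21 genes were called lower, and 17 with only the 4 knockout arrays.

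Without that pool Plk4, Nek2, Cdc25c, Cdca8, Incenp, Cenpe, Cenpf, Ndc80, Kif2c, Kif4, Kif23 and Ect2 missed the threshold, with adjusted p from 0.0531 for Ndc80 to 0.171 for Kif23. With the Y-linked covariate Plk4, Cdca8, Incenp, Nuf2 and Kif2c missed it (adjusted p 0.0555 for Cdca8 to 0.0958 for Incenp), and Anln and Racgap1 passed it (0.0371 and 0.0488). Over all alternatives 14 of the 33 calls were kept throughout, namely Aurka, Aurkb, Birc5, Bub1, Ccna2, Ccnb2, Cenpa, Kif15, Kif22, Melk, Ncapg, Ncaph, Prc1 and Tpx2. Markers of other cell types moved in the same comparison. In knockouts 6 of 8 monocyte, 5 of 9 neutrophil, 4 of 10 dendritic cell, 4 of 10 endothelial and 4 of 8 mast cell and basophil markers were lower at day 11, where 6.71% of all genes were, and 5 of 9 alveolar macrophage markers were higher, where 8.81% were. Of the lists called lower in knockouts, 1 dendritic cell and 1 endothelial marker were called higher. Of 10 alveolar epithelium markers 3 were lower and 1 higher in knockouts. In controls 4 of 8 monocyte markers were lower, where 2.49% of all genes were. There 3 of 9 alveolar macrophage, 2 of 9 neutrophil, 2 of 10 dendritic cell and 2 of 9 B cell markers were higher, where 2.81% were. Of these lists 1 neutrophil and 1 B cell marker were called lower in controls. The part of such cells in the age difference was not tested.

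**Figure D4:**
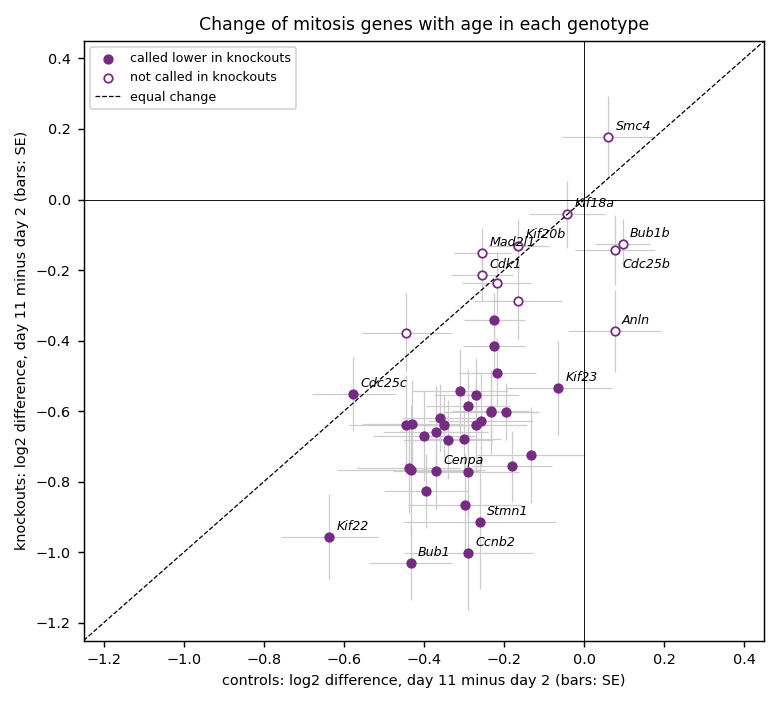
Log2 difference between day 11 and day 2 in controls (horizontal) and knockouts (vertical) for the 44 genes, with standard errors as bars and a dashed line of equal change. Filled points were called lower in knockouts, and most points lie below the line, Bub1 and Ccnb2 lowest.

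The genotype difference was larger at day 11 than at day 2 in 37 of 44 genes. Over all genes, 8308 of 18782 changed toward a lower value in knockouts at day 11. The change itself passed the threshold in 0 of the 44 genes. Of all genes 1.99% were called in this direction and 1.29% in the other. The median of the change was -0.29, against 0.02 over all genes, and 14 genes had an unadjusted p under 0.05 (limma), all toward a larger fall at day 11, where 7.20% of all genes did. The largest were Ccnb2 with -0.71 ± 0.23 (SE, adjusted p = 0.167), Stmn1 with -0.65 ± 0.27 (SE, adjusted p = 0.27) and Bub1 with -0.60 ± 0.15 (SE, adjusted p = 0.083). Near 0 lay Kif18a with 0.00 ± 0.13 (SE, adjusted p = 0.999) and Racgap1 with -0.02 ± 0.12 (SE, adjusted p = 0.965). Top2a, Ccnb2, Melk, Kif11 and Stmn1 were called without pool 1 of the day 11 knockouts, with adjusted p from 0.00922 for Ccnb2 to 0.0375 for Stmn1, and Bub1 was called without pool 2 of the day 2 knockouts (adjusted p = 0.0362). The 5 gained calls thus rest on the pool with the lowest mitosis signal as the only day 11 knockout.

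Most genes shared 1 order of the 4 groups. In 39 of 44 the means ran from day 2 controls through day 11 controls and day 2 knockouts down to day 11 knockouts. Cdc25b, Bub1b and Anln differed only in that day 11 controls stood above day 2 controls, Smc4 in addition had its day 2 knockouts lowest, and Cenpa had day 2 knockouts above day 11 controls. Both day 2 knockout pools lay below both day 11 control pools in the 43 genes other than Cenpa, against 32.4% of all genes, and above them in Cenpa, against 26.2%. A day 2 control array held the highest of the 8 values in 39 genes. A day 11 knockout array held the lowest in 42, pool 2 in 40 of these. Shares over all genes are not given here for the order of means or for these extremes. The median signal of the 44 genes was 8.66 and 8.74 on the day 2 control arrays, 7.82 and 7.72 on the day 2 knockout arrays, 8.46 and 8.37 on the day 11 control arrays and 7.44 and 7.29 on the day 11 knockout arrays.

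**Figure D5:**
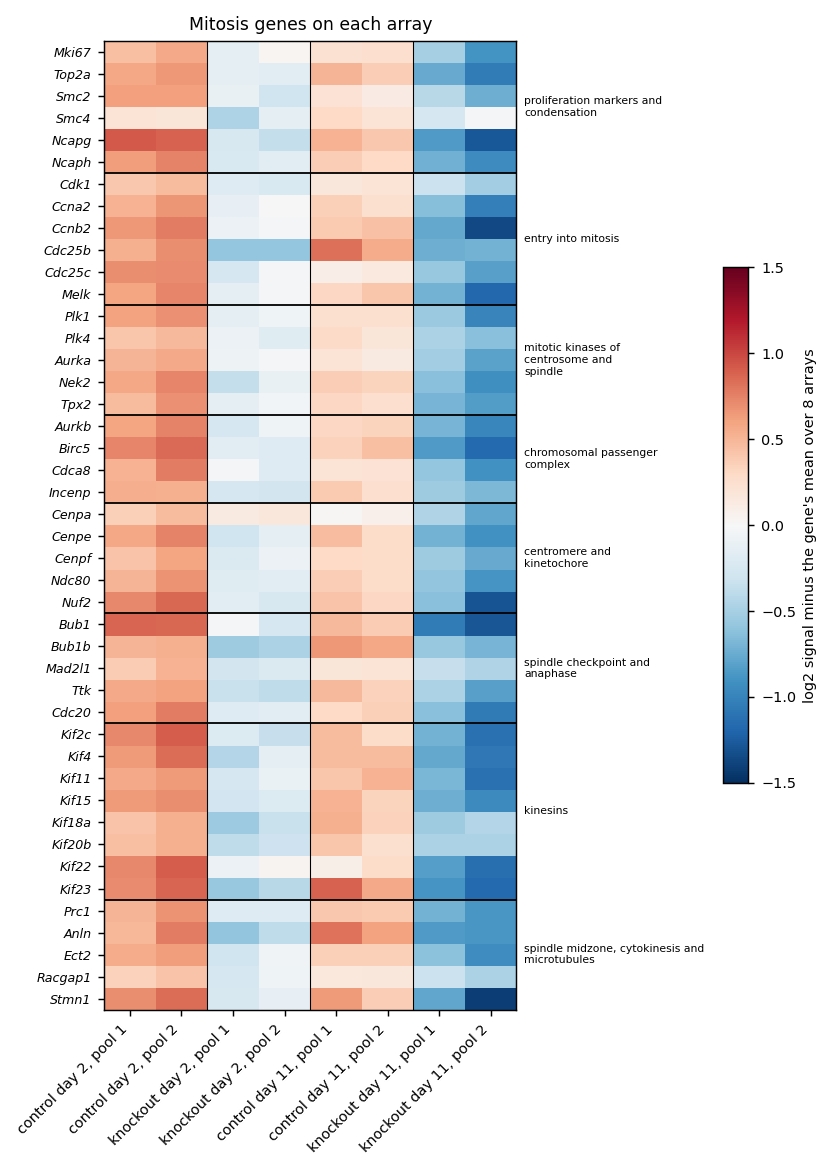
Log2 signal of the 44 genes on each of the 8 arrays, less the mean of each gene over the arrays (red above, blue below), with genes grouped by role. The control columns are mostly red and the day 11 knockout columns the deepest blue, with pool 2 of that group below pool 1 in 40 genes.

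For 5 genes more than 1 probe set was present, and the brightest was used. The other Stmn1 set gave nearly the same differences, -0.94 at day 2 and -1.59 at day 11, and the other Mad2l1 set gave -0.66 and -0.49. Dimmer sets gave smaller differences, -0.55 and -0.70 for Kif11, -0.31 and -0.26 for Prc1, and -0.15 and -0.33 for 1 of Top2a and -0.08 and -0.06 for another. Their mean signals were 5.00 for Kif11, 4.11 for Prc1 and 3.31 and 3.04 for Top2a, all below the array median of 5.35. The sets used had means of 8.46, 8.16 and 9.21. With the mean of all sets in place of the brightest, the fall of Top2a and Kif11 with age in knockouts was no longer called.

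The wider cell cycle gave the following counts. Of 84 other mitosis genes measured, 62 were called lower in knockouts at day 2 and 59 at day 11, and 0 higher at either age, with medians of -0.65 and -0.70, where 11.2% and 9.29% of all genes were lower. Fbxo5, an inhibitor of the anaphase-promoting complex, fell by 1.36 on the log2 scale at day 2 and led this list, and Cks1b, a small partner of cyclin-dependent kinases, led it at day 11 with -1.38. Of 44 genes of S phase, 43 were lower at day 2 and 41 at day 11, with medians of -0.75 and -0.82. Tk1, the thymidine kinase of DNA synthesis, changed the most of them, by -1.58 and -1.75. With age in controls 5 of the 84 and 10 of the 44 were called lower, where 2.49% of all genes and 5.61% of the brighter ones were, so the 5 of 84 lie near the share of the brighter genes. In knockouts 29 of the 84 and 22 of the 44 were called lower with age, where 6.71% of all genes and 12.3% of the brighter ones were. Haspin, a kinase of histone H3, was the 1 gene of both lists called higher with age (0.35, in knockouts). Whether called or not, 16 of the 84 and 4 of the 44 lay higher with age in knockouts.

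Of 21 measured genes that control this transcription, 11 were lower and 2 higher in knockouts at day 2, and 8 lower and 2 higher at day 11. Of all genes 11.2% were lower and 8.86% higher at day 2, and 9.29% lower and 9.34% higher at day 11, so the 2 of 21 higher lie near the share over all genes. E2f8, a repressor that is itself cell cycle regulated, changed by -0.88 at day 2 and -1.45 at day 11, and Mybl2, which joins MuvB at the CHR, by -0.79 and -0.77. Of the NF-Y subunits, Nfya was called at day 2 (-0.45) and Nfyc at both ages (-0.28), and the MuvB subunit Lin54, which contacts the CHR, rose by 0.29 at day 2. Among 17 measured genes of G1 and the inhibitors of cyclin-dependent kinases, 5 were higher and 4 lower at day 2, and 4 higher and 5 lower at day 11. Ccnd1, cyclin D1, rose by 1.86 and 2.33, and Ccnd2, cyclin D2, changed by -2.48 and -2.35 at day 2 and day 11.

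Genes with and without the promoter motifs overlapped in their differences. The 29 genes with a CHR in a window had median differences of -0.78 at day 2 and -1.16 at day 11, and the 8 without one -0.91 and -1.24. Values of the 29 at day 2 ran from -1.28 to -0.27 and those of the 8 from -1.19 to -0.70, so the ranges overlap. With a CCAAT box the medians were -0.78 and -1.16 (25 genes), and without one -0.90 and -1.22 (12 genes). No test was made of these differences.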

How the data were processed

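Sorted lung macrophages of 4 groups (control and knockout, day 2 and day 11, 2 pools each) were profiled on 8 arrays. The authors deposited log2 values for 28874 probe sets. The submitters' processing notes name RMA, which corrects, quantile-normalises and summarises probe signals, and R 2.15.2. Of the probe sets, 21159 carried 1 gene symbol in the platform annotation, 1881 several and 5834 none. The brightest single-symbol probe set stood for a gene, which left 18782 genes. Groups were compared with limma 3.58.1 in R 4.3.3, as 1 mean per group over all 8 arrays (4 residual and 3.77 prior degrees of freedom, prior SD 0.0808), in 5 contrasts including the interaction. A gene was called at a Benjamini-Hochberg adjusted p under 0.05 over all genes of a contrast, and errors are standard errors. The procedure was tested on simulated data.

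The genes and lists were chosen with earlier results of these data known, so no p was computed over a list. Values on every array are given for textbook members of each role and for the 3 largest and 2 smallest differences of each contrast. Of other lists, called genes of the regulator and G1 lists, and the 2 largest called changes each way of the others, could be named. Promoters came from RefSeq and were searched on both strands. Replicate numbers were not taken as pairs, since the labels give no pairing. Same-numbered arrays of different groups correlated at -0.08 to 0.25 in their deviations. With 2 arrays per group such correlations cannot decide on pairing. Figures used matplotlib 3.10.9 in Python 3.11.15. Alternatives comprised a replicate block, a trended robust prior, only the arrays compared, a filter on dim genes, the mean of probe sets, cyclic loess, centring on brighter genes, a stricter threshold and each array left out.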

Additional observations from a re-analysis of the deposited data

How the results depend on the processing

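No difference of a mitosis gene that was called changed sign under any alternative. The fit with the replicate number as a block, though the numbers were not shown to pair the pools, called 43 genes lower at day 2 and 43 at day 11, 4 with age in controls and 1 (Bub1) for the interaction. The trended robust prior called 5 with age in controls and 1 (Top2a) for the interaction. With only the 4 arrays compared, 15 fell with age in controls and 17 in knockouts, and 1581 and 1466 of all genes were called. At an adjusted p under 0.01, 0 fell with age in controls and 16 in knockouts, and the calls over all genes were 2209 at day 2, 2053 at day 11, 295 and 1251 with age and 181 for the interaction. The Y-linked covariate, chosen after seeing the data, left 1463 and 401 of all genes called with age in knockouts and for the interaction. With each of the 8 arrays left out in turn, genes called lower ranged from 36 to 44 at day 2, 43 to 44 at day 11, 0 to 12 with age in controls, 21 to 35 with age in knockouts and 0 to 5 for the interaction. The medians ranged from -0.88 to -0.77, -1.28 to -0.98, -0.35 to -0.21, -0.75 to -0.44 and -0.46 to -0.17, and the calls over all genes from 2223 to 3605, 2059 to 3760, 233 to 1292, 1541 to 2985 and 197 to 942. With an array left out, the lone array of a group is assumed to vary like the other groups. The cause of these shifts was not tested. The values are limited by 2 arrays per group, a common distribution forced on all arrays and gates that differ with genotype at day 11. Which day 2 gate served which genotype is not stated.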
